A study of Mus musculus with 37 samples.

Results

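The epidermal growth factor (EGF) family was followed through mouse kidneys in which 1 ureter had been tied off. The set holds 10 genes: the ligands Egf, Hbegf, Tgfa, Areg, Ereg and Btc, and the receptors Egfr, Erbb2, Erbb3 and Erbb4. They were chosen by gene symbol in the probe annotation, with 1 probe per gene, the one with the highest mean signal. Of the 10 genes, 9 had an annotated probe, and 6 of those (Egf, Hbegf, Tgfa, Btc, Egfr and Erbb2) were detected on at least 3 arrays and were tested among 12866 genes. Areg is not analysed here. The data are 37 Illumina arrays of total RNA from whole kidneys of 25 mice in 12 groups.

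Unilateral ureteral obstruction, in which urine backs up into the kidney until its tubules are injured and scar tissue forms, was done in mice of 2 lines. Twist1-deleted mice carried a ggt-driven cre, active in proximal tubule cells, and floxed Twist1, and their line controls had the floxed gene without cre. Snai1-deleted mice and their line controls were built the same way with floxed Snai1. Obstructed kidneys came from 4 Twist1-deleted mice (mice 4 to 7), 3 Twist1-line controls (mice 1 to 3), 3 Snai1-deleted mice (mice 11 to 13) and 3 Snai1-line controls (mice 8 to 10), all aged 10 weeks. The contralateral, unobstructed kidney was arrayed for 12 of these 13 mice, and that of mouse 5 is not analysed here. Kidneys of healthy mice were taken at 26 weeks from 3 animals with Twist1 deleted (numbered 20 to 22) and 3 with Snai1 deleted (23 to 25). They were taken at 10 weeks from wild-type animals, of which 3 carried cre (14 to 16) and 3 did not (17 to 19). The genetic background was mixed C57Bl/6 and sv129 in the Twist1 line and in the wild type, and mixed C57Bl/6 and Balb/c in the Snai1 line. Cre and deletion went together in each line, and age went with deletion in the healthy mice. The labels do not state how long the ureter had been obstructed.

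As background, ligands of this family are made as membrane-bound precursors and are set free by cell-surface proteases. They bind EGFR or ERBB4. ERBB2 binds no known ligand of its own and works by pairing with the other receptors, and ERBB3 signals chiefly through its partners. In the kidney, Egf is made chiefly by the thick ascending limb and the distal convoluted tubule, is shed into the urine, and promotes magnesium uptake in the distal convoluted tubule. Twist1 and Snai1 are transcription factors that bind E-box motifs, and Snai1 represses many epithelial genes.

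The promoters of the 4 members that passed the test on obstruction are shown so that their letters can be read beside the values. Each runs 5′ to 3′ on the gene's strand from 250 bases before to 50 bases after the transcription start, as RefSeq gives it on GRCm38.p6. Capitals mark CAGGTG or its reverse complement CACCTG, an E-box of the kind Snai1 binds. The Btc promoter holds a single match, on the printed strand.
Egf, chr3:129755273-129755572, minus strand, no match: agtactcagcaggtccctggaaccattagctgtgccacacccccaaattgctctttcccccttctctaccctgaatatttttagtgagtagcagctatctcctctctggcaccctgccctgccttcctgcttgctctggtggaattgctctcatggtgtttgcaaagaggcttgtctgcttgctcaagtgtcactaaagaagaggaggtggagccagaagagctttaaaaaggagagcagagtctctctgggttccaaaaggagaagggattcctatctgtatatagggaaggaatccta
Btc, chr5:91402945-91403244, minus strand, 1 match: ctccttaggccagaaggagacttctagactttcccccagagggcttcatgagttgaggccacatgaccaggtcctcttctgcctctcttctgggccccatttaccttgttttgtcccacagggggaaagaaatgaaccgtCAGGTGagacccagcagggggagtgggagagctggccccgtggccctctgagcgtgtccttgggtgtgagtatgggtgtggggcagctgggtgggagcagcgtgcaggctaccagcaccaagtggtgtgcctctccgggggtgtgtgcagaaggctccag
Egfr, chr11:16751953-16752252, plus strand, no match: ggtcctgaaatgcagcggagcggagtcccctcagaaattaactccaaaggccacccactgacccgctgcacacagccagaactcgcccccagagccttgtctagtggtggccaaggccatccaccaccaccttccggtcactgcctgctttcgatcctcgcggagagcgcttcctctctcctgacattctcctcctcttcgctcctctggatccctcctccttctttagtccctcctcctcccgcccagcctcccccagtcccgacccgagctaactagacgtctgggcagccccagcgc
Erbb2, chr11:98412234-98412533, plus strand, no match: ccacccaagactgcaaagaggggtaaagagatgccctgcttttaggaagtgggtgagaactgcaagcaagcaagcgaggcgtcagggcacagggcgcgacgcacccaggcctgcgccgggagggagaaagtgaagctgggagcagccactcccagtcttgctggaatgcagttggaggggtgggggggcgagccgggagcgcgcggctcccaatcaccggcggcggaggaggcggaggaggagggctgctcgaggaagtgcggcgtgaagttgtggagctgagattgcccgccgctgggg
The motif was found on either strand in 20.2% of 32851 promoters of the same length (300 bases). A search for TGACTCA or TGAGTCA, the AP-1 motif, found no match in the 4 promoters, against 5.2% of all promoters. Egf has a further annotated start, with its promoter at chr3:129725037-129725336 on the minus strand. That promoter is not printed and held no match to either motif. A match here is a string of letters and not a measured binding site.

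Across the series, 16977 to 20682 probes were detected per array, and arrays of a group correlated at r = 0.935 to 0.992. The number of arrays limits the precision of every value. The deleted genes were near background: Twist1 lay between 4.55 and 5.05 in Twist1-deleted obstructed kidneys, against 4.69 to 5.41 in their line controls, on the log2 scale. Snai1 lay between 4.80 and 5.61 in Snai1-deleted obstructed kidneys, against 5.30 to 5.99 in their line controls. Neither difference passed limma's test (adjusted p = 0.507 and 0.667), so these whole-kidney values do not check the labels. Xist exceeded the Y-linked genes in 8 of 25 mice, among them 3 of 3 healthy Twist1-deleted and 0 of 3 healthy Snai1-deleted mice. Obstructed kidneys of mice 7 and 11 stood apart. Their summed signal of 8 tubule injury markers was 13.13 and 14.03 on the log2 scale, against 14.60 to 15.64 in the 11 other obstructed kidneys and at most 12.07 in contralateral kidneys. Their sums of 12 proximal tubule markers (16.14 and 16.17) were the highest among the obstructed kidneys.

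Egf, the founding ligand, fell with obstruction, and its difference was the largest among the 6 tested members. The Egf values of obstructed kidneys were 8.55, 6.82, 6.06 and 12.97 in Twist1-deleted mice 4 to 7, on the log2 normalised intensity scale used throughout. They were 9.16, 5.37 and 7.19 in Twist1-line controls 1 to 3. In Snai1-deleted mice 11 to 13 they were 11.88, 10.60 and 8.24, and in Snai1-line controls 8 to 10 they were 8.09, 8.63 and 8.19. Contralateral kidneys lay between 12.53 and 13.24 (median 12.67, n = 12) and healthy kidneys between 12.39 and 13.15 (median 12.49, n = 12). Only the obstructed kidney of mouse 7 reached into the contralateral range. The other 12 obstructed values were lower than every contralateral and healthy value.

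Averaged over the 4 genotypes, Egf was 17.6-fold lower in obstructed than in contralateral kidneys (log2 difference -4.14, SE 0.50, adjusted p = 2.80e-08). Of the 6 members tested, 4 passed limma's test at an adjusted p of 0.05 in this comparison, as did 62.2% of all genes. Egf was lower in the obstructed kidney of all 12 mice with both kidneys, by 0.26 to 7.18 on the log2 scale. It was 19.1-fold lower in Twist1-deleted mice (log2 difference -4.25, adjusted p = 0.000716), 43.9-fold lower in Twist1-line controls (-5.46, adjusted p = 5.88e-05) and 21.5-fold lower in Snai1-line controls (-4.43, adjusted p = 0.000992). In Snai1-deleted mice the log2 difference was -2.43 (95% interval -4.50 to -0.36, adjusted p = 0.105). With mouse as a random replicate block that value passed (adjusted p = 0.0494), and without mouse 11's obstructed kidney it was -3.25 (adjusted p = 0.0407). Whole kidney was arrayed, so fewer Egf-producing cells and less Egf RNA per cell cannot be told apart.

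**Figure D1:**
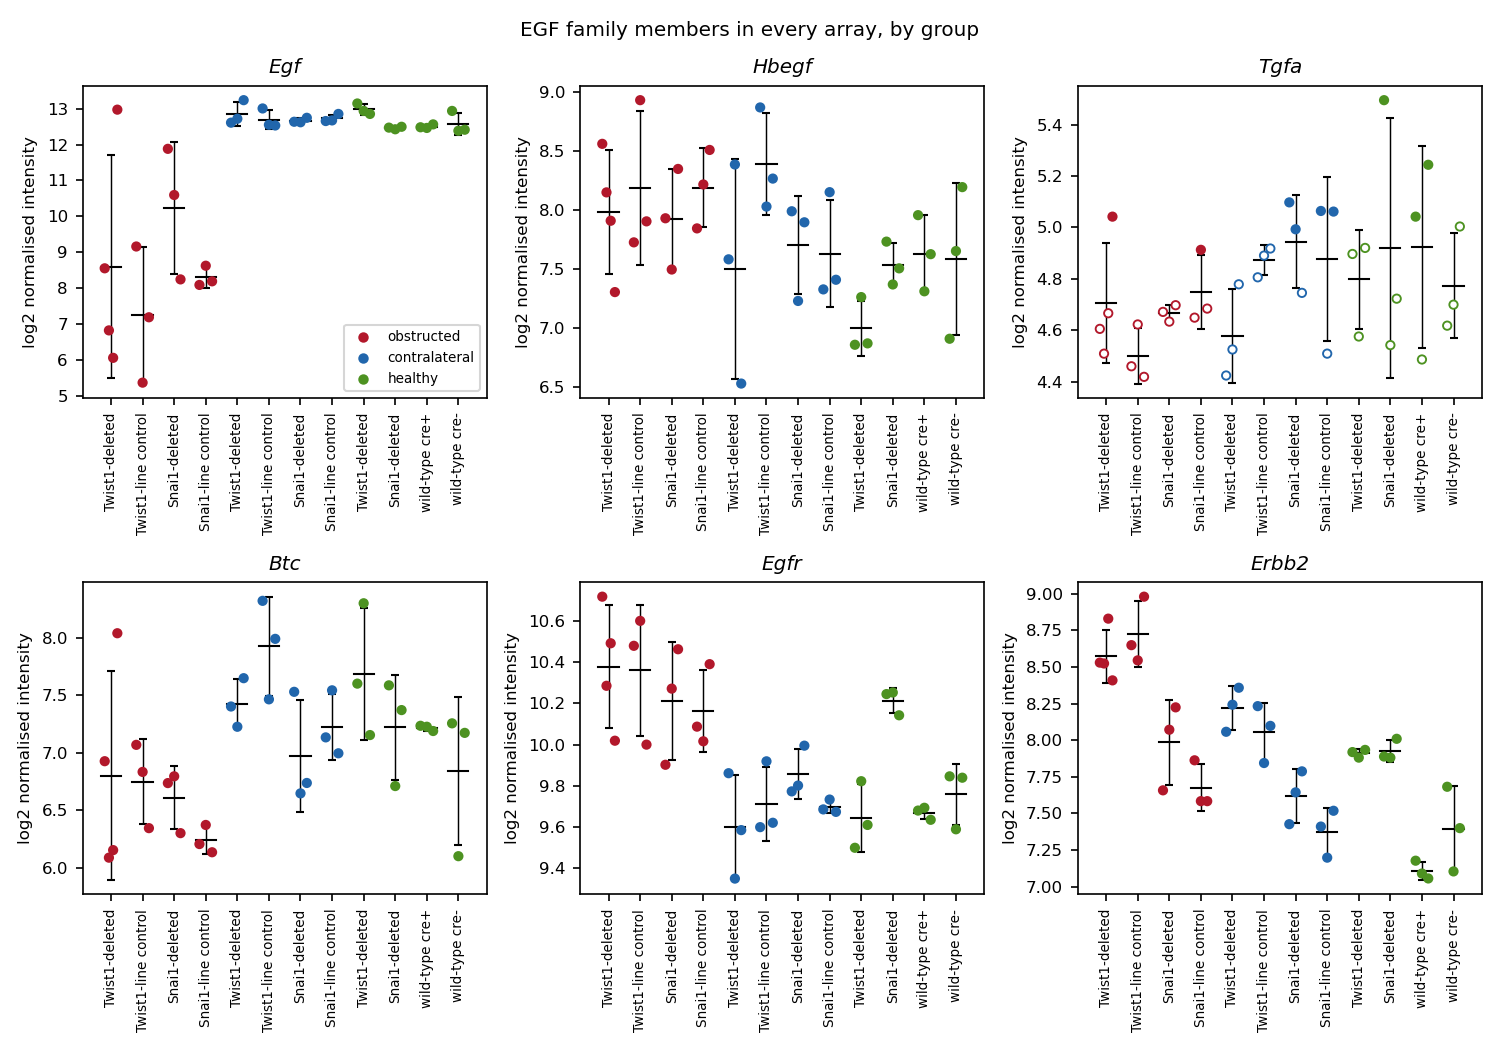
The 6 tested members in all 37 arrays: each point is 1 array, placed by its group (obstructed in red, contralateral in blue, healthy in green), with log2 normalised intensity on the vertical axis. Bars are the group mean and SD, hollow points are arrays on which the probe was not detected, and Egf lies between 12.39 and 13.24 in all unobstructed kidneys but spreads from 5.37 to 12.97 in obstructed ones.

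Egf varied more than any other member among obstructed kidneys (SD 2.18, n = 13), against an SD of 0.21 in contralateral kidneys (n = 12). Its obstructed values ran with markers of the nephron. Over the 13 obstructed kidneys, Egf correlated with the summed signal of 9 thick ascending limb markers, such as Umod and Slc12a1, at Pearson's r = 0.898 (permutation p = 6e-05, adjusted p = 0.000133) and Spearman's rho = 0.824 (permutation p = 0.00099, adjusted p = 0.00247). It ran against the summed signal of the tubule injury markers, such as Lcn2 and Havcr1, at r = -0.917 and rho = -0.912 (permutation p = 1e-05 for both, adjusted p = 5e-05 for both), the smallest p these 100000 permutations give. Without the 2 kidneys farthest from the median of the marker sum, r was 0.784 for the thick ascending limb and -0.862 for injury. Within the Twist1 line (n = 7) the coefficients were 0.953 and -0.926, and within the Snai1 line (n = 6) 0.876 and -0.963.

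The other 3 of the 5 relations computed were also past the threshold: r was 0.825 for proximal tubule markers (permutation p = 0.00041, adjusted p = 0.000512), 0.860 for distal convoluted tubule markers (8e-05, adjusted p = 0.000133) and -0.761 for macrophage and myeloid markers (0.00299, adjusted p = 0.00299). Spearman's rho for these 3 lists was 0.753, 0.769 and -0.643, with adjusted p = 0.0054, 0.0054 and 0.0207 from the same permutations. The lists moved together across the obstructed kidneys, and their separate parts in the Egf values were not tested. The kidneys of mice 7 and 11 held both the least injury signal and the most Egf. Without them the mean obstruction difference of Egf was -4.71 (adjusted p = 3.28e-13), that in Twist1-deleted mice -5.71 (adjusted p = 1.81e-08) and that in Snai1-deleted mice -3.25 (adjusted p = 0.000847). The choice to leave out these 2 kidneys was made after their values were seen.

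**Figure D2:**
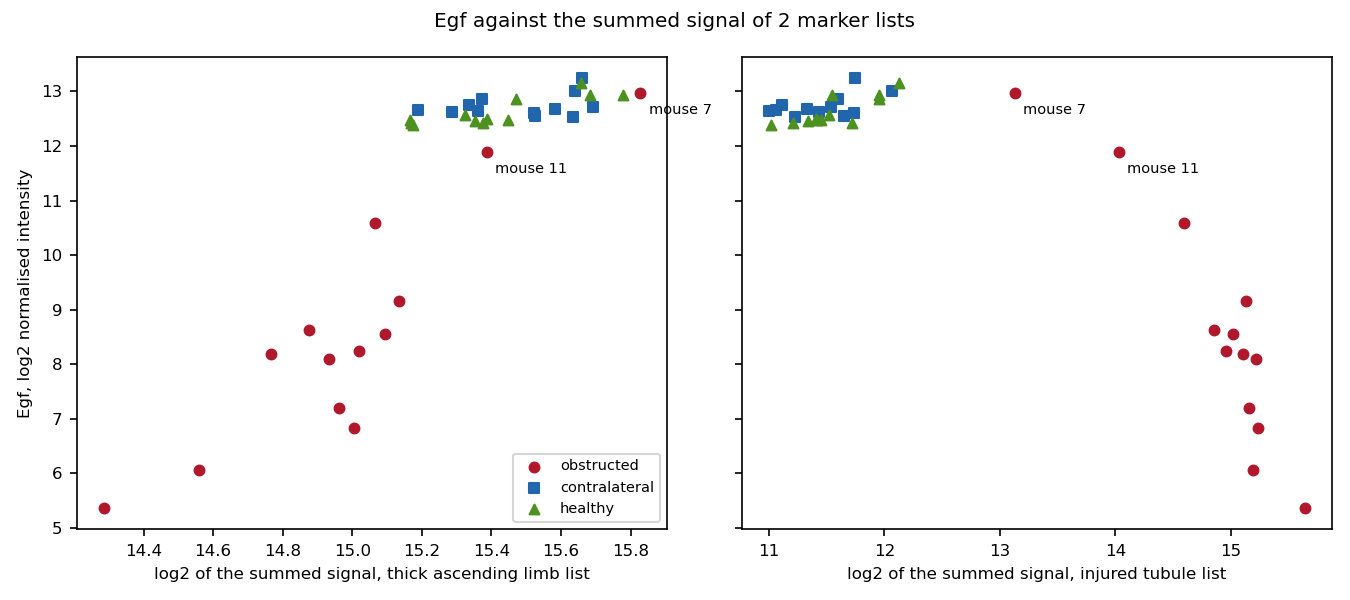
Egf in each of the 37 arrays (vertical axis, log2 normalised intensity) against the log2 of the summed signal of the thick ascending limb list (left) and the tubule injury list (right). Across the 13 obstructed kidneys (red circles) Egf follows the left sum (r = 0.898) and runs against the right (r = -0.917), and mice 7 and 11 lie nearest to the contralateral (blue squares) and healthy (green triangles) kidneys.

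A second Egf probe, much dimmer and detected on 27 of 37 arrays, also read lower on obstruction, by less. It lay between 4.54 and 5.19 in obstructed kidneys and between 4.59 and 5.79 in contralateral kidneys, so the groups overlapped. Its mean log2 difference was -0.46 (SE 0.11, adjusted p = 0.000599 over 24544 probes).

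Btc, which encodes betacellulin, a ligand of EGFR and ERBB4, was also lower in obstructed kidneys. Its values were 6.93, 6.09, 6.15 and 8.04 in obstructed kidneys of Twist1-deleted mice 4 to 7, against 7.40, 7.23 and 7.65 in the contralateral kidneys of mice 4, 6 and 7. In Twist1-line controls they were 7.07, 6.83 and 6.34 in obstructed kidneys, against 8.32, 7.47 and 7.99 in contralateral kidneys. In these controls all 3 obstructed values lay under all 3 contralateral values, whereas in Twist1-deleted mice the groups overlapped through mouse 7 alone. Snai1-deleted mice had 6.74, 6.80 and 6.30 in obstructed and 7.53, 6.65 and 6.74 in contralateral kidneys. Snai1-line controls had 6.21, 6.37 and 6.13 in obstructed and 7.14, 7.54 and 7.00 in contralateral kidneys, with no overlap.

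The mean log2 difference of Btc was -0.79 (SE 0.19, 1.73-fold lower, adjusted p = 0.000547), and the obstructed kidney was lower in 10 of 12 mice. By genotype, Btc passed in Twist1-line controls (-1.18, adjusted p = 0.0114) and in Snai1-line controls (-0.99, adjusted p = 0.0412). It did not pass in Twist1-deleted mice (-0.62, adjusted p = 0.166) or in Snai1-deleted mice (-0.36, adjusted p = 0.585). Leaving out the obstructed kidney of mouse 3 or the contralateral kidney of mouse 1 ended the call in Twist1-line controls (adjusted p = 0.0624 and 0.0599), and so did leaving out any obstructed kidney or the contralateral kidney of mouse 8 or 9 in Snai1-line controls (adjusted p from 0.0581 to 0.145). Over all 17 other settings in Twist1-line controls, Btc passed in 14, and its largest adjusted p was 0.162. In Snai1-line controls the call also ended on the median-centred scale (-0.63, adjusted p = 0.253), without the detection filter (adjusted p = 0.0618) and without background correction (adjusted p = 0.0719). Without mouse 7's obstructed kidney the Twist1-deleted value was -1.04 (adjusted p = 0.00798). With arrays centred on their medians in place of quantile normalisation, the mean difference of Btc was -0.38 (adjusted p = 0.111). On that scale the median of all genes itself moved by 0.18, against 0.01 with quantile normalisation.

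Hbegf, the heparin-binding ligand that injured epithelia are known to induce, did not pass the test on obstruction. It ranged from 7.31 to 8.93 in obstructed kidneys (median 7.93, n = 13), from 6.53 to 8.87 in contralateral kidneys (median 7.94, n = 12) and from 6.86 to 8.20 in healthy kidneys (median 7.44, n = 12). The mean log2 difference was 0.27 (95% interval -0.13 to 0.66, adjusted p = 0.236), and the obstructed kidney was the higher in 8 of 12 mice. On the median-centred scale it was 0.58 and passed (adjusted p = 0.00716). The call for Hbegf therefore depended on the normalisation.

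The remaining ligands were at or near background. Tgfa, the classical second ligand of EGFR, was detected on 2 of 13 obstructed, 4 of 12 contralateral and 3 of 12 healthy arrays. It lay between 4.42 and 5.04 in obstructed kidneys and between 4.42 and 5.10 in contralateral kidneys, with a mean log2 difference of -0.16 (adjusted p = 0.158). Ereg, which encodes epiregulin, was detected on 0 of 37 arrays with either of its 2 probes and was not tested. Its brighter probe ranged from 4.29 to 4.67 in obstructed and from 4.35 to 4.81 in contralateral kidneys, which are values of undetected probes and set no level.

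**Figure D3:**
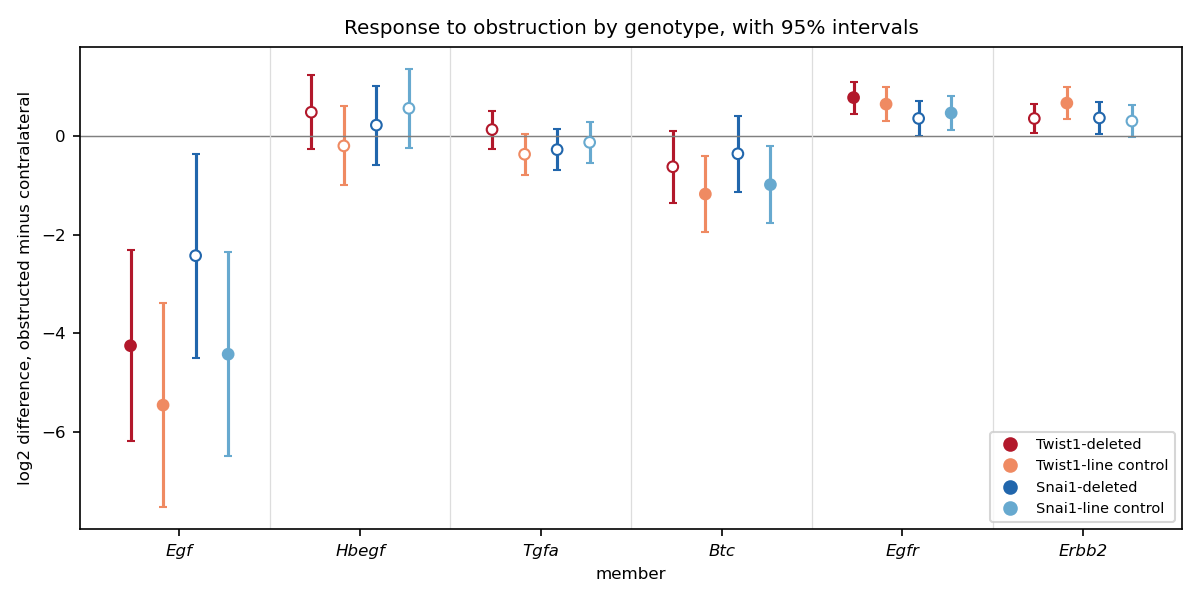
Log2 differences between obstructed and contralateral kidneys (vertical axis) for the 6 tested members (horizontal axis) in each of the 4 genotypes. Points are limma estimates, bars are 95% intervals, and filled points passed an adjusted p of 0.05; Egf is below 0 in all 4 genotypes, and no member of Snai1-deleted mice is filled.

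Egfr, the receptor that Egf binds, rose on obstruction as read by its brightest probe. That probe gave 10.72, 10.28, 10.49 and 10.02 in obstructed kidneys of Twist1-deleted mice 4 to 7, against 9.86, 9.35 and 9.59 in the contralateral kidneys of mice 4, 6 and 7. It gave 10.48, 10.60 and 10.00 in obstructed kidneys of Twist1-line controls, against 9.60, 9.92 and 9.62 in their contralateral kidneys. The groups did not overlap in either of these genotypes. Snai1-deleted mice had 9.90, 10.27 and 10.46 in obstructed and 9.77, 9.80 and 9.99 in contralateral kidneys. Snai1-line controls had 10.09, 10.02 and 10.39 in obstructed and 9.69, 9.73 and 9.67 in contralateral kidneys. Their groups did not overlap either, while those of Snai1-deleted mice did. The obstructed kidney was higher in all 12 mice, by 0.13 to 1.14.

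The mean log2 difference of Egfr was 0.56 (SE 0.08, 1.48-fold higher, adjusted p = 1.05e-06). It passed in Twist1-deleted mice (0.78, adjusted p = 0.000289), in Twist1-line controls (0.65, adjusted p = 0.00236) and in Snai1-line controls (0.47, adjusted p = 0.0312), but not in Snai1-deleted mice (0.35, 95% interval 0.01 to 0.70, adjusted p = 0.164). Leaving out any of 4 single kidneys (mouse 10's obstructed kidney or the contralateral kidney of mouse 8, 9 or 10) ended the call in Snai1-line controls, with adjusted p from 0.0555 to 0.171. Markers of injury, fibroblasts and macrophages rose beside it. In the mean obstruction comparison 8 of 8, 9 of 9 and 9 of 9 measured genes of these lists passed upward, against 33.6% of all genes. Krt20 and Itgam among them reached the detection minimum only through obstructed kidneys, and the part of these lists in the Egfr value was not tested.

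The 5 Egfr probes past the detection filter did not move together. Besides the brightest probe, a probe with no transcript in its annotation rose (log2 difference 0.64, SE 0.10, adjusted p = 3.23e-06 over all probes), and a dim probe of the same transcript as the brightest, detected on 7 arrays, gave 0.25 (adjusted p = 0.00888). Both probes annotated to a second RefSeq transcript fell, by 0.65 (adjusted p = 5.74e-06) and by 0.52 (adjusted p = 0.000247) on the log2 scale. Each of these was lower in the obstructed kidney in 11 of 12 mice. The exception in both was higher by at most 0.25. With the mean of a gene's probes in place of its brightest, the mean obstruction difference of Egfr was 0.06 and did not pass (adjusted p = 0.445).

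Within each mouse, the change of the brightest probe was set against the mean change of the 2 falling probes, a description with no test, since the probes were set against each other after their directions were seen. The gap was positive in 12 of 12 mice, from 0.24 to 2.03 on the log2 scale, with a mean of 1.16 ± 0.58 (SD, n = 12 mice). Its sign follows from that choice. Which protein each transcript encodes is not in the annotation used here, and the statement that Egfr rose holds for the probes of the first transcript and the unassigned probe.

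**Figure D4:**
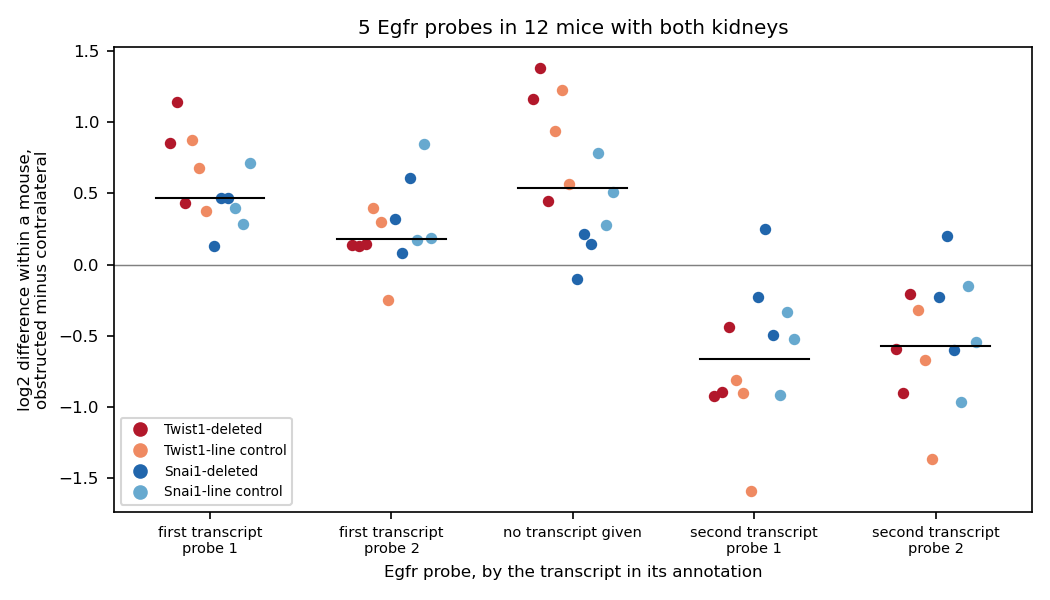
The 5 Egfr probes past the filter (horizontal axis, grouped by the transcript in their annotation) and their log2 difference between the obstructed and the contralateral kidney of the same mouse (vertical axis). Each point is 1 of 12 mice, coloured by genotype, and the line is the median; the brightest probe (first transcript, probe 1) lies above 0 in every mouse, while both probes of the second transcript lie below 0 in 11 of 12 mice.

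Erbb2, the ligand-less partner receptor, also rose on obstruction. It gave 8.53, 8.52, 8.83 and 8.41 in obstructed kidneys of Twist1-deleted mice 4 to 7, against 8.06, 8.24 and 8.36 in the contralateral kidneys of mice 4, 6 and 7. Twist1-line controls had 8.65, 8.55 and 8.98 in obstructed and 8.23, 7.84 and 8.10 in contralateral kidneys. Obstructed and contralateral values did not overlap in either genotype of this line. Snai1-deleted mice had 7.66, 8.07 and 8.22 in obstructed and 7.43, 7.64 and 7.79 in contralateral kidneys. Snai1-line controls had 7.86, 7.58 and 7.58 in obstructed and 7.41, 7.20 and 7.52 in contralateral kidneys. The values of these controls did not overlap either, while those of Snai1-deleted mice did.

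The mean log2 difference of Erbb2 was 0.42 (SE 0.08, 1.34-fold higher, adjusted p = 2.25e-05), and the obstructed kidney was higher in 12 of 12 mice. Taken by genotype, only Twist1-line controls passed (0.67, adjusted p = 0.000811). The difference was 0.35 in Twist1-deleted mice (adjusted p = 0.0539), 0.37 in Snai1-deleted mice (adjusted p = 0.115) and 0.30 in Snai1-line controls (adjusted p = 0.136). With mouse as a random replicate block it passed in Twist1-deleted mice (adjusted p = 0.0234) and in Snai1-deleted mice (adjusted p = 0.0497).

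**Figure D5:**
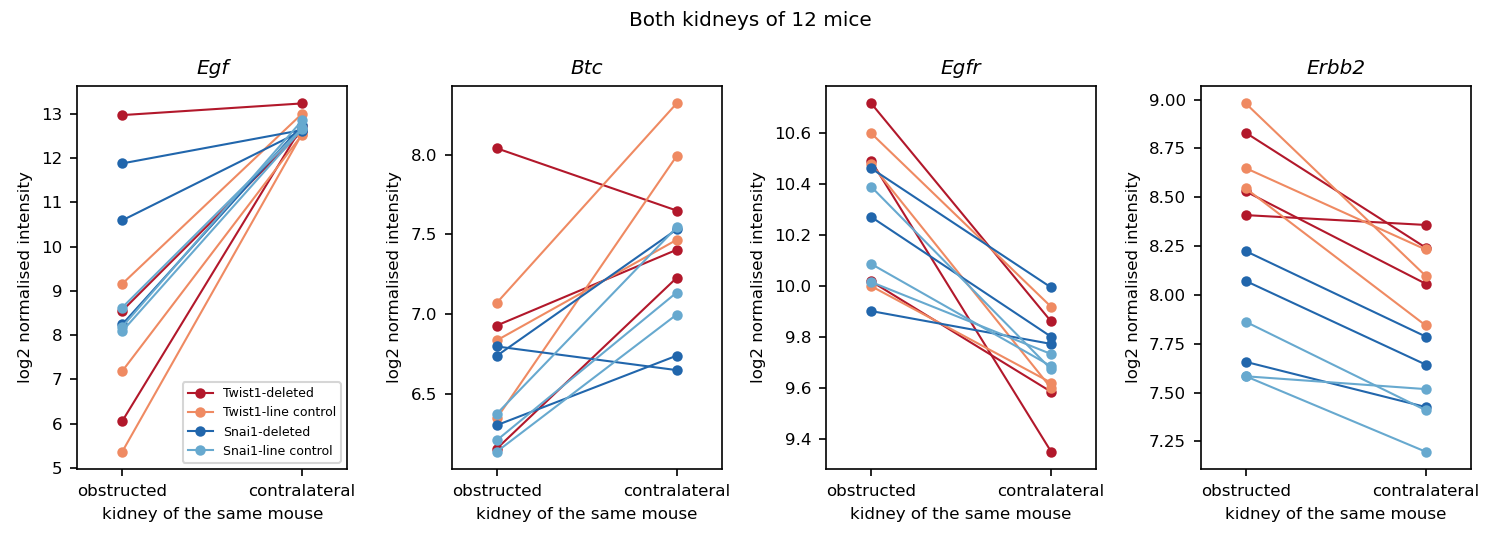
The 4 members that passed in the mean obstruction comparison, in both kidneys of 12 mice (lines join the obstructed kidney, left, to the contralateral kidney, right, and colours give the genotype), with log2 normalised intensity on the vertical axes. Egf is lower and Egfr and Erbb2 are higher in the obstructed kidney of every mouse, and Btc is lower in 10 of 12.

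Erbb2 also differed between the lines. Its 2 highest group means were those of obstructed kidneys of Twist1-line controls (8.72 ± 0.23, SD, n = 3) and Twist1-deleted mice (8.57 ± 0.18, SD, n = 4), followed by Twist1-deleted and Twist1-line control contralateral kidneys (8.22 ± 0.15 and 8.06 ± 0.20, n = 3 each). Snai1-deleted obstructed kidneys (7.98 ± 0.29) and healthy Snai1-deleted and Twist1-deleted kidneys (7.93 ± 0.07 and 7.91 ± 0.03) came next. Snai1-line control obstructed kidneys (7.68 ± 0.16), Snai1-deleted contralateral kidneys (7.62 ± 0.18), wild-type kidneys without cre (7.39 ± 0.29), Snai1-line control contralateral kidneys (7.38 ± 0.16) and wild-type kidneys with cre (7.11 ± 0.06) were the lowest (SD, n = 3 each). Neighbours in this order differed by more than the larger of their SDs at 3 steps: below the obstructed kidneys of Twist1-deleted mice, below the healthy Twist1-deleted kidneys and above the wild-type kidneys with cre.

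A further 2 comparisons, between the controls of the 2 lines, were added after these values were seen. Erbb2 was 2.07-fold higher in obstructed kidneys of Twist1-line than of Snai1-line controls (log2 difference 1.05, SE 0.16, adjusted p = 5.26e-05), the only member that passed, while 22.2% of all genes passed. In contralateral kidneys the same comparison gave 0.68 (adjusted p = 0.00526), where 13.4% of all genes passed. On the median-centred scale the 2 values were 0.68 (adjusted p = 0.00948) and 0.37 (adjusted p = 0.165). The raw signals overlapped in contralateral kidneys (229.4 to 354.2 in Twist1-line and 244.8 to 266.5 in Snai1-line controls) and did not in obstructed kidneys (399.3 to 550.1 and 303.9 to 380.8). Within these 2 comparisons, genetic background, line and any batch cannot be told apart. Healthy wild-type kidneys without cre, of the same mixed background as the Twist1 line, averaged 7.39. Contralateral kidneys averaged 8.06 in Twist1-line and 7.38 in Snai1-line controls, and the part of background was not tested.

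The other 2 receptors were not measurable. Erbb3, which binds neuregulins, was detected on 1 of 37 arrays, the obstructed kidney of Snai1-line control mouse 9, and Erbb4, also a neuregulin receptor, on 0 of 37 with either of its 2 probes. Without the detection filter, Erbb3 read 0.13 higher in obstructed than in contralateral kidneys on the log2 scale (adjusted p = 0.005 over 19057 genes), between values of undetected probes, so it bounds no level.

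Deletion of Twist1 or Snai1 in proximal tubule cells moved no member past the threshold in obstructed kidneys. With Twist1 deletion 0 of 6 members passed, by limma, against 0.0311% of all genes, and with Snai1 deletion 0 of 6, against 0%. At an unadjusted p of 0.05 the count of members was likewise 0 in both. The 2 largest differences were those of Egf. It averaged 8.60 ± 3.10 in Twist1-deleted and 7.24 ± 1.90 in Twist1-line control obstructed kidneys (SD, n = 4 and 3), a log2 difference of 1.36 with a 95% interval of -0.57 to 3.30 (adjusted p = 0.599). It averaged 10.24 ± 1.84 in Snai1-deleted and 8.30 ± 0.28 in Snai1-line control obstructed kidneys (SD, n = 3 each), a difference of 1.94 with a 95% interval of -0.13 to 4.01 (adjusted p = 0.495).

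The intervals of Egf are wide, and differences of several-fold in either comparison lie within them. They rest on a single spread shared by all 12 groups, although the SD of Egf was 2.18 in obstructed and 0.21 in contralateral kidneys. An interval between obstructed kidneys of the Twist1 line may therefore be too narrow, and an interval between unobstructed kidneys too wide. Without the kidneys of mice 7 and 11 the Egf differences were -0.09 for Twist1 (adjusted p = 0.999) and 1.12 for Snai1 (adjusted p = 0.689). With arrays weighted by their quality, the Snai1 value was 2.38 and passed (adjusted p = 0.0389). The differences of Egfr had narrower intervals: 0.02 (95% interval -0.31 to 0.34) with Twist1 deletion and 0.05 (-0.30 to 0.39) with Snai1 deletion. Snai1-deleted obstructed kidneys had 14.03 to 14.96 as the log2 sum of the injury markers, against 14.85 to 15.22 in their line controls. Their sum of proximal tubule markers was 15.74 to 16.17, against 14.40 to 15.58 in their line controls, and the part of either in the Egf values was not tested.

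Nor did the response to obstruction itself pass a test of difference between genotypes. The difference of the responses, deleted minus control, was 1.20 for Egf in the Twist1 line (95% interval -1.63 to 4.04, adjusted p = 0.915) and 2.00 in the Snai1 line (-0.93 to 4.92, adjusted p = 1.00). No member passed in either, and 0% and 0% of all genes did. Between the controls of the 2 lines, Snai1-line minus Twist1-line, 0 of 6 members passed against 0.0389% of genes. At an unadjusted p of 0.05 the counts of members were 0 in all 3. Egf thus passed in 3 genotypes and missed in Snai1-deleted mice, where 0 of 6 members passed against 15.2% of genes and 3 of 6 had an unadjusted p under 0.05, but no difference between the genotypes was shown. In the other genotypes 2 of 6 members passed in Twist1-deleted mice (40.1% of genes), 4 of 6 in Twist1-line controls (47.2%) and 3 of 6 in Snai1-line controls (36.4%).

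In contralateral kidneys the deletions moved no member either: 0 of 6 passed with Twist1 deletion (0.00777% of genes) and 0 of 6 with Snai1 deletion (0%), with 1 (Hbegf) and 0 at an unadjusted p of 0.05. Hbegf read 7.58, 8.39 and 6.53 in Twist1-deleted contralateral kidneys of mice 4, 6 and 7, against 8.87, 8.03 and 8.27 in their line controls (log2 difference -0.89, 95% interval -1.69 to -0.09, adjusted p = 0.859). Cre alone, in healthy wild-type kidneys, gave 0 of 6 members (0.0155% of genes) and 0 at an unadjusted p of 0.05.

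In healthy kidneys Erbb2 was higher in mice with either deletion than in wild-type mice with cre. It gave 7.92, 7.88 and 7.93 in healthy Twist1-deleted kidneys and 7.89, 7.88 and 8.01 in healthy Snai1-deleted kidneys, against 7.18, 7.09 and 7.06 in wild-type kidneys with cre. All 6 values of deleted mice exceeded all 3 of the wild-type mice. The log2 difference was 0.80 for Twist1 deletion (SE 0.16, 1.75-fold higher, adjusted p = 0.00607), where Erbb2 was the only member to pass and 3.4% of genes did. It was 0.82 for Snai1 deletion (SE 0.16, 1.76-fold higher, adjusted p = 0.00442), again the only member, against 0.886% of genes. Both comparisons share the same 3 wild-type mice. The deleted mice were 26 and the wild-type mice 10 weeks old, and only the deleted mice carried a floxed gene. Age, line and deletion therefore cannot be told apart. Without deletion and at 10 weeks, contralateral kidneys of Twist1-line controls averaged 8.06, against 7.39 in healthy wild-type kidneys without cre. The wild-type kidneys with cre had the lowest of the 12 group means (7.11). The part of line in these values was not tested. Xist exceeded the Y-linked genes in 3 of 3 healthy Twist1-deleted mice and in 0 of 3 wild-type mice with cre, so that reading cannot be told apart from Twist1 deletion either, and the Snai1-deleted mice also differed from the wild type in genetic background. With the Xist and Y-linked reading of each mouse as a covariate the Twist1 value was 0.72 (adjusted p = 0.0611).

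Egfr read 10.24, 10.25 and 10.14 in healthy Snai1-deleted kidneys, against 9.68, 9.69 and 9.64 in wild-type kidneys with cre. The groups did not overlap, but the log2 difference of 0.54 did not pass over all genes (SE 0.17, adjusted p = 0.16). It passed with array weights, on the median-centred scale and with only the groups compared (adjusted p = 0.00439, 0.0187 and 0.0256). In healthy Twist1-deleted kidneys Egfr gave 9.50, 9.82 and 9.61 and overlapped with the wild type. Egf in healthy kidneys differed from the wild type by 0.48 with Twist1 deletion (adjusted p = 0.859) and by -0.04 with Snai1 deletion (adjusted p = 0.997). With Twist1 deletion the groups did not overlap (12.85 to 13.15, against 12.46 to 12.56 in wild-type kidneys with cre). Over 17 other settings that difference ran from -0.78 to 0.54 and passed in 1, with only the groups compared (adjusted p = 0.0266).

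The contralateral kidneys of line controls were also set against healthy wild-type kidneys without cre. In the Twist1 line, where 17.8% of genes passed, Btc was 2.12-fold higher (log2 difference 1.08, adjusted p = 0.0461) and Erbb2 1.58-fold higher (0.66, adjusted p = 0.00475). The raw signals of these groups overlapped. Btc had 193.9 to 369.3 in Twist1-line control contralateral and 154.7 to 267.2 in wild-type kidneys, and Erbb2 229.4 to 354.2 and 214.4 to 328.3. Over all probes, the raw 25th percentile was 86.3 to 110.1 on contralateral and 107.6 to 121.4 on healthy arrays. On the median-centred scale both missed, Erbb2 at 0.40 (adjusted p = 0.13), while Egfr passed downward (-0.45, adjusted p = 0.031, against -0.05 with quantile normalisation). For Btc, leaving out wild-type mouse 18 or 19 or control mouse 1 or 3 ended the call (adjusted p from 0.0562 to 0.261). In the Snai1 line 0 of 6 members passed, and 0 had an unadjusted p under 0.05, while 0.459% of genes passed. Egf differed by 0.12 and 0.15 in the 2 comparisons, within the spread of its groups.

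The wider pathway was read from lists of genes that act with the family. Beside them stand all genes in the mean obstruction comparison, of which 33.6% passed upward and 28.7% downward, with a median log2 difference of 0.01. Of 16 measured early response genes, which growth factor and stress signals induce within minutes, 14 passed upward and 0 downward, with a median of 1.58. Of these 16, Egr3, Myc and Vgf reached the detection minimum only through obstructed kidneys and so had to read higher there, and of the 13 others 12 rose and 0 fell. Fosl2, an AP-1 subunit, rose by 2.52 (SE 0.20, adjusted p = 1.03e-11). Egr2, a zinc finger transcription factor, was detected on 13 of 13 obstructed and 4 of 12 contralateral arrays. By genotype, 11 of the 16 passed upward in Twist1-deleted mice (21.9% of all genes), 10 in Twist1-line controls (26.7%), 11 in Snai1-deleted mice (10.5%) and 11 in Snai1-line controls (21.1%), and 0 passed downward in any.

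Ligands outside the set went in both directions. Nrg1, a neuregulin that binds ERBB3 and ERBB4, rose by 1.07 (SE 0.17, adjusted p = 4.12e-06), and Nrg4, a ligand of ERBB4, fell by 0.84 (SE 0.17, adjusted p = 6.39e-05), while the third of the 3 measured did not pass. Among 8 sheddases and their partners, 4 passed upward and 3 downward (median 0.27), and without Adam12, which reached the detection minimum only through obstructed kidneys, 3 of 7 rose and 3 fell. Rhbdf1, a partner of the protease ADAM17, rose by 0.72 (adjusted p = 1.28e-08), and Adam12 was detected on 12 of 13 obstructed and 0 of 12 contralateral arrays. Adam9 fell by 0.53 and Frmd8, which stabilises the ADAM17 complex, by 0.49 (adjusted p = 0.00022 and 6.80e-06), although both missed on the median-centred scale (-0.20 and -0.10).

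Feedback inhibitors and downstream adaptors were also mixed. Of 14 feedback genes 5 rose and 3 fell (median -0.12). Lrig2, among those that fell, was detected on 0 of 13 obstructed, 3 of 12 contralateral and 0 of 12 healthy arrays. It reached the detection minimum only through contralateral kidneys and so had to read lower in obstructed ones. Spred1, an inhibitor of the RAS pathway, rose by 0.46 (adjusted p = 6.54e-08). Usp8, which the list held beside the inhibitors, encodes a deubiquitinase that acts on internalised receptors, and it fell by 1.06 (adjusted p = 1.15e-08). Of 16 adaptors and kinases 7 rose and 6 fell (median 0.07). Shc1, an adaptor that docks on the active receptor, rose by 0.86 (adjusted p = 2.78e-12) and Nras by 1.05 (adjusted p = 1.03e-11), while Pik3cb fell by 0.63 (adjusted p = 5.70e-09) and Eps8 by 0.59 (adjusted p = 2.12e-05).

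Genes of renal magnesium handling fell more often than they rose. The list was not limited to genes that Egf regulates, and any part of Egf in these values was not tested. Of 11 measured, 1 rose and 5 fell (median -0.29). Fxyd2, a subunit that modulates the sodium pump, fell by 0.90 (adjusted p = 2.86e-10). Slc41a3, a magnesium transporter, rose by 0.41 (adjusted p = 0.000889). Markers of the segments that make Egf fell beside them: 6 of 9 thick ascending limb and 5 of 7 distal convoluted tubule markers passed downward and 0 upward, with medians of -1.06 and -0.89, and all 12 proximal tubule markers fell. The claudins and Trpm channels of the magnesium list are also among those segment markers. Without the kidneys of mice 7 and 11 the downward counts were 7, 5 and 12. The fall was not particular to the segments that make Egf. With all kidneys, 5 of 7 collecting duct principal cell and 4 of 5 intercalated cell markers passed downward and 0 upward (medians -0.70 and -1.33). For deletion of Twist1 or Snai1, in obstructed and in contralateral kidneys, limma called 0 genes of the 6 lists of ligands, sheddases, feedback, adaptor, early response and magnesium genes.

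The genes whose pattern over the 37 arrays was most like a member are given as a description. For Egf they were F13b (r = 0.972), 1700029P11Rik (0.970) and Pxmp2 (0.965). F13b, which encodes a coagulation factor subunit, lay between 4.63 and 10.76 in obstructed and between 10.83 and 11.77 in contralateral kidneys. For Egfr they were Selenoi (r = 0.835), Vcl (0.827) and Ppp4r1 (0.827), and for Hbegf B4galt1 (0.753), Cebpb (0.725) and Gltp (0.722). Vcl, which encodes the adhesion protein vinculin, lay between 10.46 and 11.86 in obstructed and between 9.65 and 10.40 in contralateral kidneys. The 37 arrays share the obstruction, array platform and normalisation.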

How the data were processed

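Total RNA of 37 whole kidneys was hybridised to Illumina mouse arrays. The deposited intensity values are non-normalized probe signals, and the deposited detection p-value of each probe and array comes from the authors' export with GenomeStudio 5.0, per the submitters' processing notes. The deposited series matrix holds an intensity per probe that was a linear function of the signal on each array (r = 1, slopes 0.725 to 1.2), and it was used as an alternative.

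Of 45281 probes, 34885 had a single gene symbol. Signals were background-corrected, quantile-normalised and put on a log2 scale with neqc of limma 3.58.1 in R 4.3.3 (offset 16). Probes detected (p under 0.05) on at least 3 arrays were kept, and the brightest gave its gene's value, for 12866 genes. A linear model of 12 group means with empirical Bayes moderation gave 17 comparisons, with Benjamini-Hochberg adjustment over all genes and a threshold of 0.05. For each gene the 12 groups shared a single estimate of the spread. Where groups vary unequally, as for Egf, intervals and p-values can be too narrow or too wide. All p-values described as adjusted are limma's unless a permutation is named. Simulated data of 12866 genes were fitted for the mean obstruction comparison. The fit recovered 97% of genes changed by 1 and 100% of genes changed by 2 on the log2 scale, with 8 false calls. The simulated noise of a gene had the same spread in every group and no mouse effect. The recovery therefore does not extend to genes of unequal spread such as Egf, and comparisons within a genotype rest on fewer arrays. The labels do not say whether groups came from separate litters or days, and replicates are separate mice.

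Both kidneys of a mouse carry its number in the labels, and residuals of the 12 pairs correlated at 0.1735 to 0.6347. The members and lists were chosen with earlier results of these data known. Besides the members, the text names up to 2 genes per list and direction with the smallest adjusted p, and the 3 genes most like Egf, Hbegf and Egfr.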

Additional observations from a re-analysis of the deposited data

Results flagged for a closer look

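Tgfa moved in opposite directions in the 2 genotypes of the Twist1 line, which is what put it here. In all 3 Twist1-deleted mice with both kidneys it read higher in the obstructed kidney, and in all 3 Twist1-line controls it read lower. The difference of the obstruction response, Twist1-deleted minus control, was 0.50 on the log2 scale (95% interval -0.06 to 1.07), and limma's test of that difference did not pass (adjusted p = 0.858). Among the Twist1-line arrays of obstructed mice the Tgfa probe was detected only in the obstructed kidney of mouse 7, so the other values lie within background.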

How the results depend on the processing

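Of 2030 values of members recomputed under other settings, 1952 kept their side of the threshold (120 of them, called in neither setting, changed sign), 32 were called only under the alternative, 37 were called only in the main analysis and 9 that were called in either setting reversed. These 9 were all of Egfr: the 2 probes of the second transcript gave -0.52 and -0.65 for the mean obstruction comparison, -0.54 and -0.74 in Twist1-deleted mice, -0.78 and -1.10 in Twist1-line controls and -0.55 and -0.59 in Snai1-line controls, and the mean of all probes gave -0.036 in Twist1-line controls.

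The members called on obstruction numbered 4 on average, 2 in Twist1-deleted mice, 4 in Twist1-line controls, 0 in Snai1-deleted mice and 3 in Snai1-line controls. A 2-fold minimum made these 1, 1, 2, 0 and 1, and an adjusted p under 0.01 left 1 in Snai1-line controls. In Twist1-deleted mice the count was 4 under median centring and without mice 7 and 11, and 1 with the mean of probes or only the groups compared, where Egf missed (adjusted p = 0.0705). In Snai1-deleted mice it was 2 under median centring and with mouse as a random replicate block, 1 with array weights and 3 without mice 7 and 11. As a fixed replicate block, mouse changed no call. Leaving out single arrays gave 2 to 4 in Twist1-deleted mice (4 without mouse 7), 0 to 2 in Snai1-deleted mice (2 without mouse 11) and 1 to 2 in Snai1-line controls.

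For deletion in healthy kidneys the count of 1 for each gene became 2 with array weights (Hbegf added for Twist1, Egfr for Snai1) or only the groups compared (Egf for Twist1, Egfr for Snai1), and 0 with a 2-fold minimum. Median centring gave 2 for Snai1 (Egfr added), and the sex covariate gave 0 for Twist1. Array weights gave 1 for Snai1 deletion in obstructed kidneys. Twist1-line contralateral against wild-type kidneys gave 2, then 1 under median centring (Egfr, lower, in place of both), 1 under series matrix values, no detection filter, an adjusted p under 0.01 or a 2-fold minimum, 0 with only the groups compared, and 1 to 2 leaving out single arrays. The causes of these shifts were not tested.

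Median centring moved the share of upward calls on obstruction to 71.9%, against 54% in the main analysis, and that of Twist1-line contralateral over wild-type kidneys to 12.7%, against 48.4%. A slide block was not run, since the headers give no slide. Groups of 3 or 4 arrays and probes near background (Tgfa, Ereg, Erbb3, Erbb4) limit what can be called.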
